A study of Homo sapiens with 8 samples.

Results

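The genes described here are those of the proteasome, the barrel-shaped protease that degrades ubiquitinated proteins. All protein-coding genes whose symbol begins with PSMA, PSMB, PSMC, PSMD, PSME, PSMF or PSMG followed by a digit were taken, apart from readthrough genes with a hyphen, and matched to the Ensembl identifiers of the count files. This gave 50 genes of the 58051 in the files. Of these, 45 had a mean normalized count (BaseMean) above 5 and were tested with all other such genes, 7550 in total. By role, the 50 genes comprised 8 alpha subunits (PSMA) and 7 constitutive beta subunits (PSMB1 to PSMB7) of the 20S core, 4 beta subunits of the immunoproteasome and thymoproteasome (PSMB8 to PSMB11), 6 ATPases (PSMC) and 11 non-ATPase subunits (PSMD) of the 19S regulatory particle, 3 chaperones of 19S assembly, 4 chaperones of 20S assembly (PSMG), 4 activators (PSME) and 1 inhibitor (PSMF1). The remaining 2, PSMC3IP and PSME3IP1, match by name only: they encode proteins that bind to, or were named after, a proteasome protein and are not subunits themselves.

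In the 20S core, rings of alpha subunits gate the entry and rings of beta subunits carry the proteolytic sites, of which PSMB5 (chymotrypsin-like), PSMB6 (caspase-like) and PSMB7 (trypsin-like) are the catalytic ones. The 19S regulatory particle binds the ubiquitin chain, removes it, and unfolds and feeds in the substrate by means of its ATPase ring. In cells exposed to interferon, PSMB8, PSMB9 and PSMB10 take the place of PSMB5, PSMB6 and PSMB7, which alters the peptides offered for antigen presentation.

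Expression was measured by sequencing the 3' ends of polyadenylated RNA in MDA-MB-231 (MDA231), a human breast cancer line of mesenchymal appearance. Complex II (succinate dehydrogenase) of the respiratory chain was altered in 2 sublines, so that the comparisons ask what the loss of SDHB changes and what the additional loss of SDHA changes. Parental cells were not modified (n = 2). In SDHB-KO cells (n = 3), SDHB, the iron-sulfur subunit, was knocked out, which the study's methods describe as done with TALEN nucleases against exon 1 and hygromycin selection. In SDHB-KO SDHA-low cells (n = 3), called SDHA-low cells from here on, the catalytic subunit SDHA was in addition knocked down, by a short hairpin RNA under puromycin selection. Both sublines are thus labelled as lacking SDHB, all cells were harvested at 70% confluency in full medium, and no treatment was applied. The labels number the biological replicates within each group. They do not say whether these were separate clones or cultures, and they do not say whether the SDHB-KO samples carried an empty vector, so p-values measure the spread between these samples only.

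Between 773042 and 1427141 reads were counted on genes per sample, of which 0.920% to 1.13% fell on the 50 proteasome genes. Before TMM normalization, a count of 3 corresponded to between 2.102 and 3.88 CPM, the unit of counts scaled to a common library size. In the TMM-normalized CPM used below, it was 4.1 in SDHB-KO replicate 1 and 2.24 in SDHA-low replicate 2. Reads mapping to several places were 10.2% and 10.9% of all reads in parental cells, 14.5% to 16.1% in SDHB-KO cells and 9.72% to 12.3% in SDHA-low cells, and the part of this difference in the results was not tested. The parental samples had 64 and 69 counts of SDHA, the SDHB-KO samples 108, 121 and 140, and the SDHA-low samples 7, 17 and 16, so the knockdown was visible in each of its samples. SDHB had 0 to 4 counts in every sample, which is too few to check the knockout. Of 7 markers of the line, VIM, CD44, AXL, CAV1 and KRT18 were detected with at least 44 counts in every sample, whereas ANXA1 had 0 to 5 and S100A4 3 to 13 counts. Of 5 genes known to be low in this line, ESR1 and PGR were at 0, and CDH1 and EPCAM did not exceed 2 counts. ERBB2, the fifth, had 15 to 25 counts per sample. The 7 markers of fibroblasts and leukocytes did not exceed 6 counts.

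The level of a proteasome gene depended far more on which gene it was than on the subline. In a 3' end library a transcript gives about 1 read whatever its length, so CPM values were compared between genes without division by length. Over all 8 samples, the tested subunits ranged from 10 CPM for PSMA2, an alpha subunit, to 1189 CPM for PSMB1, a non-catalytic beta subunit. The median of the 50 genes was 91.0 CPM. Beta subunits were detected at higher levels than alpha subunits: the class medians were 354 and 16.9 CPM, although the assembled core holds both in equal number. The alpha median includes PSMA8 at 0 CPM and PSMA6 at 0.42 CPM. In PSMA1, PSMA2, PSMA3 and PSMA6 another gene overlaps the last 300 bases of the transcript, and the part of this in the difference was not tested. PSMA7 was the highest alpha subunit (374 CPM) and PSMA1 the next (118 CPM), while PSMA2, PSMA3, PSMA4 and PSMA5 lay between 10 and 29.4 CPM. Such values describe reads counted at the annotated 3' ends and were not calibrated against protein.

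**Figure D1:**
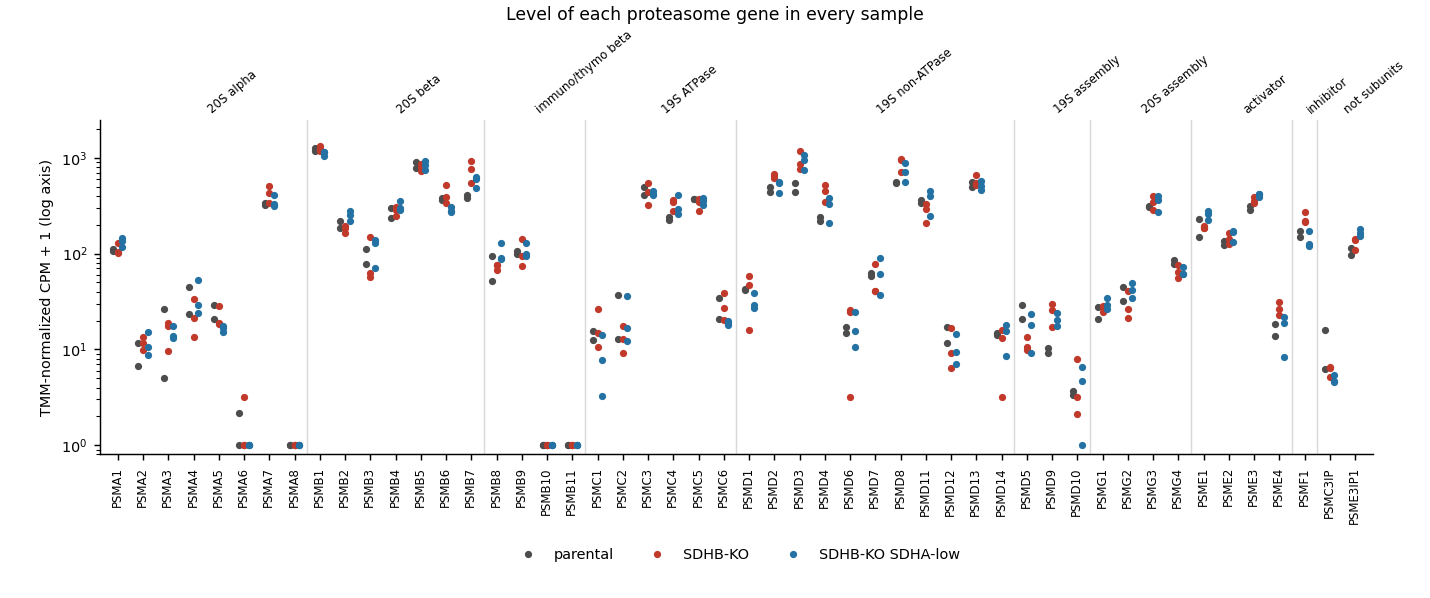
Level of each of the 50 proteasome genes in every sample. Each point is 1 sample, the vertical axis is TMM-normalized CPM + 1 on a log axis, and genes are ordered by class. PSMB1 lies highest at 1189 CPM on average, PSMA8, PSMB10 and PSMB11 lie at 0 CPM in all 8 samples, and the spread between genes exceeds that between groups.

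The 5 members under the minimum count were not tested. PSMA8, an alpha subunit of germ cells, PSMB11, the thymus-specific beta subunit, and PSMB10, the third interferon-inducible beta subunit, were listed at 0 counts in all 8 samples. PSMA6, an alpha subunit that every proteasome contains, had 1 count in parental replicate 1, 2 counts in SDHB-KO replicate 2 and 0 in the other 6 samples. Values at or near 0 were thus listed also for a gene that every cell uses. The last 300 bases of the PSMA6 and PSMB10 transcripts are overlapped by another annotated protein-coding gene on the same strand (ENSG00000258790 and ENSG00000261884), and both of these genes also had 0 counts. The same holds for PSMA1, PSMA2 and PSMD9, and for 7 further members a gene on the opposite strand overlaps these bases. These are PSMA3, PSMC1, PSMC2, PSMC3IP, PSMD6, PSMD7 and PSME1. The length of each overlap was not measured, and the strand setting of the counting is not given in the sources used here. The values of all these members are thus uncertain. PSMD10, a chaperone of 19S assembly also called gankyrin, had 0 to 5 counts per sample. Pseudogenes took few reads: of 44 pseudogenes named after members, 4 had any counts, 47 counts in all against 75679 on the members.

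In SDHB-KO against parental cells, 3 proteasome genes rose, each about 1.9-fold: the catalytic core subunit PSMB7 and the 19S subunits PSMD3 and PSMD4. They were called by an adjusted p below 0.1 with the quasi-likelihood test of edgeR. None of the 45 fell; at an unadjusted p below 0.05 there were 8 higher and 1 lower, and DESeq2 called 4 higher and 0 lower. Among all 7550 genes tested, 5.54% were called in either direction and 3.14% as higher, so the 3 of 45 members (6.67%) lie near the first share and above the second. The median log2 fold change of the 45 was 0.024, beside -0.001 for all genes, with 26 members above 0 and 19 below. For 26 of the 45 the 95% interval of the difference lay within a 2-fold change either way, and for the other 19 a 2-fold difference was not excluded at this depth. In 14 members (11 higher and 3 lower) all SDHB-KO samples lay on one side of both parental samples, which is 31.1% of members, beside 37.9% of all genes. The samples are bulk RNA, in which more cells expressing a gene and more RNA per cell cannot be told apart.

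Parental samples of PSMD3 had 433 and 542 CPM, SDHB-KO samples 1163, 764 and 852 CPM, and SDHA-low samples 945, 1064 and 748 CPM. PSMD3 (also RPN3) is a structural subunit of the 19S lid, at chromosome 17, bases 39980807 to 39997959 of GRCh38. The 3 SDHB-KO samples were all above both parental samples, and so were the SDHA-low samples. By edgeR, its log2 fold change was 0.93 ± 0.23 (SE), with an adjusted p of 0.036. PSMD4 was measured at 237 and 216 CPM in the parental samples, at 524, 347 and 451 CPM in the SDHB-KO samples, and at 331, 381 and 207 CPM in the SDHA-low samples. PSMD4 (RPN10), at chromosome 1, bases 151254709 to 151267479 of GRCh38, is a receptor of the 19S particle for ubiquitin chains. Every SDHB-KO sample exceeded the parental samples, while 1 SDHA-low sample, replicate 3, lay below them. A test in edgeR gave a log2 fold change of 0.96 ± 0.26 (SE) and an adjusted p of 0.052. Parental samples of PSMB7 had 375 and 408 CPM, SDHB-KO samples 922, 538 and 755 CPM, and SDHA-low samples 599.8, 625 and 482 CPM. PSMB7, at chromosome 9, bases 124353465 to 124415444 of GRCh38, carries the trypsin-like site. Its SDHB-KO samples all lay above the parental ones, with SDHB-KO replicate 2 inside the range of the SDHA-low cells. The log2 fold change was 0.92 ± 0.23 (SE), with an adjusted p of 0.040 in edgeR.

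**Figure D2:**
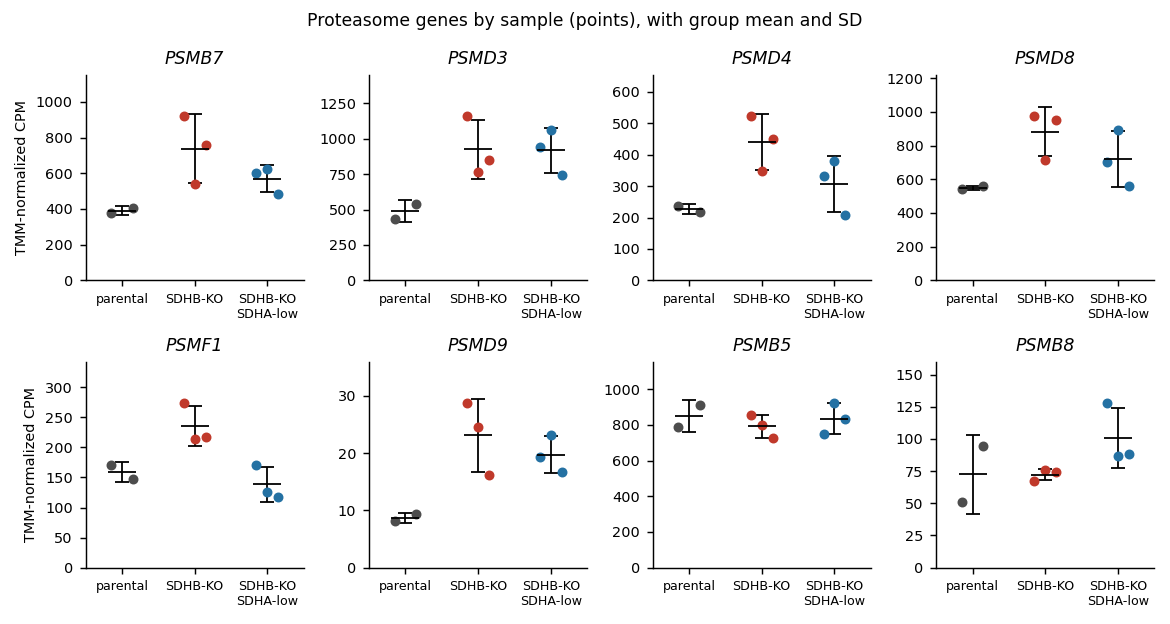
TMM-normalized CPM of 8 proteasome genes in parental, SDHB-KO and SDHA-low cells. Points are samples, the horizontal dash is the group mean and the bars are 1 SD (n = 2, 3 and 3). PSMB7, PSMD3, PSMD4, PSMD8 and PSMD9 lie higher in every SDHB-KO sample than in both parental samples, PSMF1 is lowest in the SDHA-low cells on average, and the groups of PSMB5 overlap.

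These calls depended on which samples entered the test. Without parental replicate 1, parental replicate 2 or SDHB-KO replicate 1, the calls of PSMB7, PSMD3 and PSMD4 were lost, although the log2 fold changes remained between 0.73 and 1.10. Leaving out SDHB-KO replicate 3 ended those of PSMB7 and PSMD4, and PSMD4 had an adjusted p above 0.05 in edgeR. SDHB-KO replicate 1 had the highest level of all 3 genes and also the largest share of multimapping reads (16.1%). With 1 parental sample left, the test assumes that it varies like the other groups.

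None of the other 19S subunits was called by edgeR. PSMD8 was measured at 540.3 and 558 CPM in the parental samples, at 977, 717 and 954 CPM in the SDHB-KO samples, and at 705, 890.1 and 559 CPM in the SDHA-low samples. PSMD8 (RPN12), a lid subunit, was higher in all SDHB-KO samples than in parental cells. By edgeR, its log2 fold change was 0.69 ± 0.23 (SE), with an adjusted p of 0.106, so it missed the threshold, whereas DESeq2 called it at an adjusted p of 0.045. PSMD2, a scaffold subunit of the base, averaged 466 ± 33 (SD) CPM in parental and 645 ± 34 CPM in SDHB-KO cells, and the ATPase PSMC4 232 ± 13.8 and 326 ± 43.3 CPM. Both had an unadjusted p below 0.05 and an adjusted p of 0.23 and 0.28 in edgeR. None of the 6 ATPases was called. Their log2 differences ran from -0.96 ± 0.55 (SE) for PSMC2, as large in size as those of the called genes but with a wider error, to 0.49 for PSMC4, with 3 above and 3 below 0. Among the 11 non-ATPases, 6 were above and 5 below 0, with PSMD14, the deubiquitinase of the lid, at the low end (-0.50) and PSMD4 at the high end (0.96).

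Summed over all 11 non-ATPase subunits, the parental samples reached 2626 and 2875 CPM, the SDHB-KO samples 4440, 3527 and 3660 CPM, and the SDHA-low samples 3726, 3608 and 3057 CPM. The sums of the SDHB-KO samples were all above the parental ones. Such a sum is weighted to genes of high level and includes PSMD3 and PSMD4. The median log2 difference of the 11 genes was 0.131, with 6 above and 5 below 0. The 6 ATPases together gave 1110 ± 49.2 CPM in parental, 1149 ± 168 CPM in SDHB-KO and 1140 ± 61.8 CPM in SDHA-low cells, and these groups overlapped. All 50 genes summed to 9338 ± 593 CPM in parental cells, 11118 ± 1010 CPM in SDHB-KO cells and 10489 ± 593 CPM in SDHA-low cells. Of the difference of 1780 CPM between SDHB-KO and parental cells, 1000.5 CPM lay in PSMB7, PSMD3 and PSMD4, which were picked for their difference in this comparison, and 780 CPM in the other 47.

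**Figure D3:**
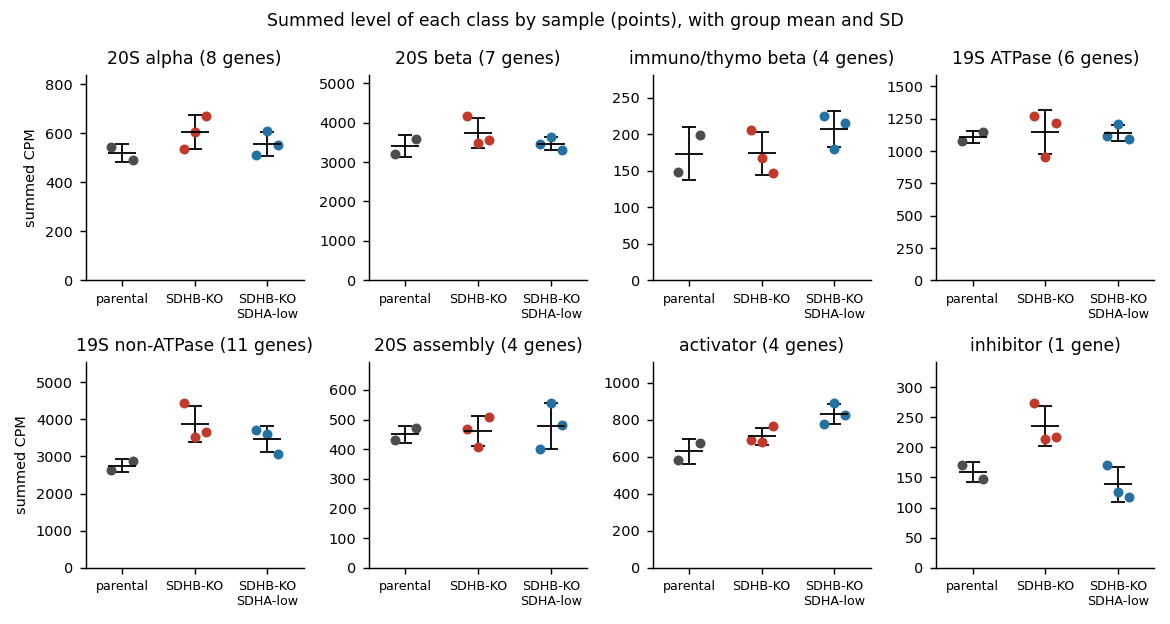
Summed TMM-normalized CPM of 8 classes of proteasome genes by sample, on axes that start at 0. Points are samples, dashes are group means and bars are 1 SD (n = 2, 3 and 3). The sum of the 19S non-ATPase class averages 2751 CPM in parental and 3876 CPM in SDHB-KO cells. Of its 11 genes, 6 had a log2 difference above 0 and 5 below. The ATPase groups overlap between 958 and 1274 CPM.

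The chaperones that build the 19S particle had low counts and went in both directions. Parental samples of PSMD9 had 8.10 and 9.29 CPM, SDHB-KO samples 28.7, 24.5 and 16.2 CPM, and SDHA-low samples 19.3, 23.1 and 16.7 CPM. PSMD9 (p27) escorts an ATPase pair during assembly of the base. All 6 samples of the sublines were above both parental samples. A test in edgeR gave a log2 fold change of 1.39 ± 0.50 (SE) and an adjusted p of 0.133. PSMD5 was measured at 19.7 and 27.9 CPM in the parental samples, at 12.3, 8.89 and 9.71 CPM in the SDHB-KO samples, and at 16.9, 8.21 and 22.3 CPM in the SDHA-low samples. PSMD5 (S5b) is another base chaperone. Its 3 SDHB-KO samples were below the parental samples, and the log2 fold change was -1.20 ± 0.50 (SE), with an adjusted p of 0.208 in edgeR. Neither gene passed the threshold. The 4 chaperones of the 20S core, PSMG1 to PSMG4, differed by -0.40 to 0.17 on the log2 scale between SDHB-KO and parental cells, and their sum was 450 ± 28, 461 ± 51.7 and 479 ± 77.6 CPM in parental, SDHB-KO and SDHA-low cells.

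Promoters are shown for PSMD3, which was called in both comparisons with parental cells, and for PSMD9 and PSMD5, which had the largest log2 difference upward and downward in SDHB-KO against parental cells. Each window runs from 250 bases before to 50 bases after a RefSeq transcript start (GRCh38.p14), is written 5' to 3' on the strand of the gene, and has in capitals each match to TGACNNNGC or, on the other strand, GCNNNGTCA. These letters are the core of the antioxidant response element, through which factors of the NFE2L1 family are known to raise proteasome genes. PSMD3 lies at chr17:39980557-39980856 (plus strand), PSMD9 at chr12:121888540-121888839 (plus strand) and PSMD5 at chr9:120842873-120843172 (minus strand).
PSMD3: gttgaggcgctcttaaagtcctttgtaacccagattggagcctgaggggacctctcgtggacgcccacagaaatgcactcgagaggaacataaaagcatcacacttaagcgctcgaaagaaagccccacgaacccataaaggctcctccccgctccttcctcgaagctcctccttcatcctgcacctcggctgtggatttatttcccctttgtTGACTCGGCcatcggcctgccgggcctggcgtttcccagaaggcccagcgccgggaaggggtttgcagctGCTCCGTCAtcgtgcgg
PSMD9: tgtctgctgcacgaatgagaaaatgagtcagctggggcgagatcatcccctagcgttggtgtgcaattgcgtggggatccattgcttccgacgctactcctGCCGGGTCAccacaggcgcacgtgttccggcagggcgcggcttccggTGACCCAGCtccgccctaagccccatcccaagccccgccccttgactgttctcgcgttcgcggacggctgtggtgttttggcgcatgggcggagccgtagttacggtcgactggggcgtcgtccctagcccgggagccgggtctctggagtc
PSMD5: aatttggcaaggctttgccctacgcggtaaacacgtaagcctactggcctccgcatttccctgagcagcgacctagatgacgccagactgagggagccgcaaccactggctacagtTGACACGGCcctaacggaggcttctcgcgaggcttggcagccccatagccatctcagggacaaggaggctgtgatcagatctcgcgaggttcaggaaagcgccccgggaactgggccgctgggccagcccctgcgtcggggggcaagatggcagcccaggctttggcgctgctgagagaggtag
PSMD3 and PSMD9 have a match on each strand and PSMD5 has 1 match, on the strand of the gene. The RefSeq windows cover 44 of the 50 genes, without PSMA7, PSMB1, PSMB6, PSMB7, PSMD4 and PSMG3, so that 1 of the 3 genes called in SDHB-KO against parental cells is among them. Matches were found in 15 of 55 windows of the proteasome genes (27.3%), beside 13.3% of 35116 windows of all genes. The windows of PSMD8 and PSMF1 hold no such letters. A match is a description of the sequence and no evidence of binding.

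Besides PSMB7, no gene of the 20S core was called. Parental samples of PSMB5 had 787 and 912 CPM, SDHB-KO samples 855, 799 and 725 CPM, and SDHA-low samples 748, 923 and 833 CPM. These 3 ranges overlapped, and the log2 fold change was -0.10 ± 0.20 (SE), with an adjusted p of 0.855 in edgeR. PSMB6 was measured at 362 and 376 CPM in the parental samples, at 514, 337 and 385 CPM in the SDHB-KO samples, and at 275, 307 and 273 CPM in the SDHA-low samples. Parental samples lay within the range of the SDHB-KO samples. The log2 fold change was 0.16 ± 0.22 (SE), with an adjusted p of 0.772 in edgeR. The non-catalytic subunit PSMB1, the highest of all 50, averaged 1226 ± 57 CPM in parental, 1247 ± 72.3 CPM in SDHB-KO and 1106 ± 47.9 CPM in SDHA-low cells. Of the 6 alpha subunits tested, none was called, with log2 differences from -0.61 for PSMA4 to 0.38 for PSMA2 in SDHB-KO against parental cells. PSMA7, the highest of them, averaged 330 ± 9.96, 426 ± 86.8 and 351 ± 49.7 CPM in parental, SDHB-KO and SDHA-low cells.

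The interferon-inducible subunits were expressed at a fraction of their constitutive partners. Parental samples of PSMB8 had 50.9 and 94.2 CPM, SDHB-KO samples 67.05, 75.6 and 74.5 CPM, and SDHA-low samples 128, 86.5 and 88.03 CPM. PSMB9 was measured at 97.2 and 105 CPM in the parental samples, at 139.6, 92.3 and 73.4 CPM in the SDHB-KO samples, and at 97.8, 93.3 and 128 CPM in the SDHA-low samples. In SDHB-KO against parental cells both were near 0 difference, PSMB8 with a log2 fold change of 0.007 ± 0.29 (SE) and PSMB9 with 0.001 ± 0.28, and the sign of both changed when 1 sample was left out. PSMB8 amounted to 8.40 ± 2.73% (SD) of PSMB5 in parental, 9.19 ± 1.24% in SDHB-KO and 12.4 ± 4.16% in SDHA-low cells. The groups overlapped. PSMB9 amounted to 26.8% and 27.9% of PSMB6 in the parental samples, to 27.1%, 27.4% and 19.1% in the SDHB-KO samples, and to 35.5%, 30.4% and 46.9% in the SDHA-low samples. Each SDHA-low sample was thus above all others in this ratio, which combines a PSMB9 difference of 0.07 and a PSMB6 difference of -0.53 on the log2 scale against SDHB-KO cells, neither called. PSMB10 was listed at 0, so no ratio to PSMB7 can be given.

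**Figure D4:**
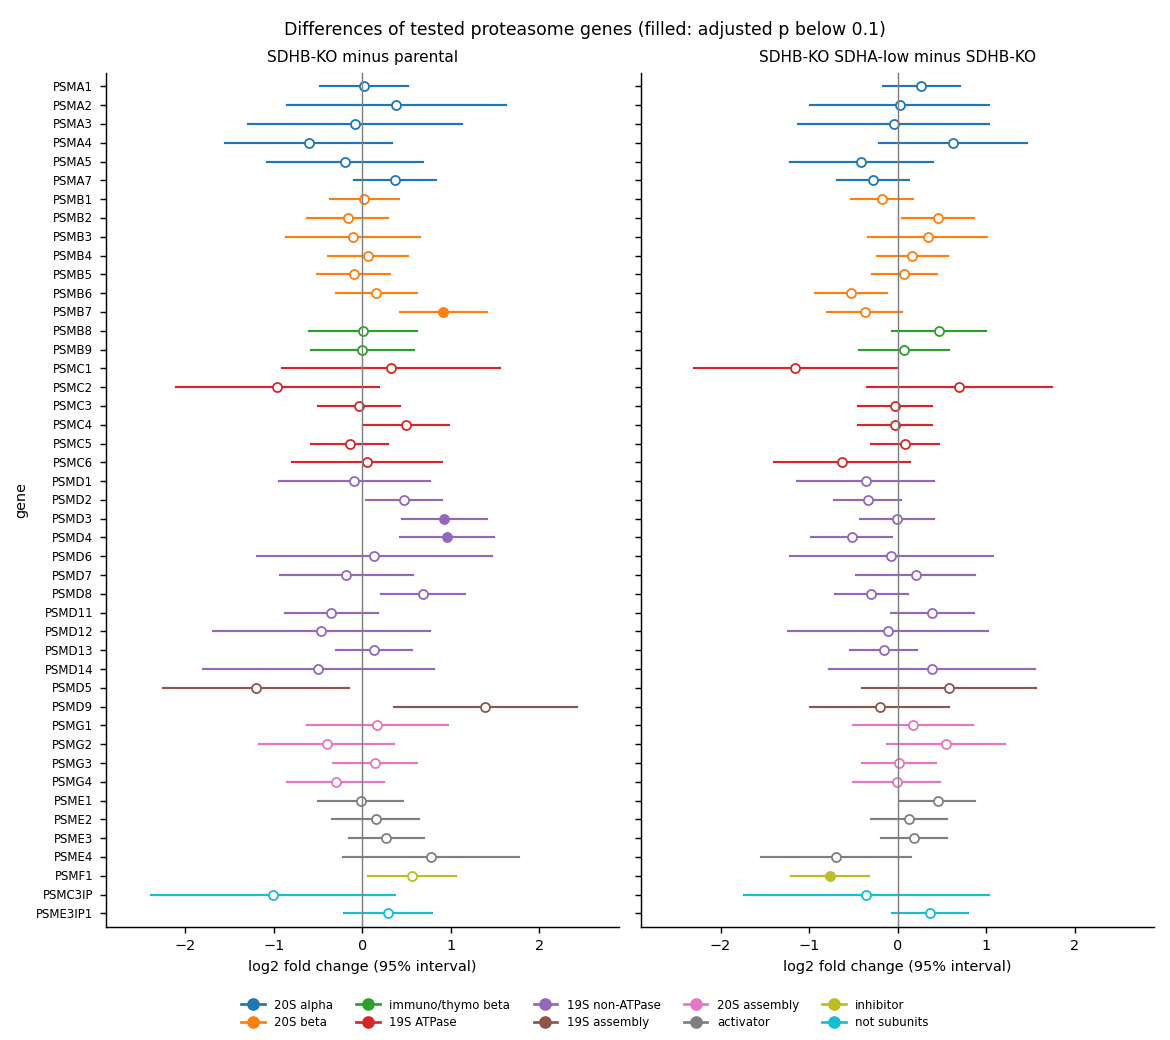
Log2 fold change of the 45 tested proteasome genes with its 95% interval from edgeR, for SDHB-KO minus parental cells and for SDHA-low minus SDHB-KO cells. Colours mark classes and filled points have an adjusted p below 0.1. PSMB7 (0.92), PSMD3 (0.93) and PSMD4 (0.96) are filled in the first comparison and PSMF1 (-0.77) in the second.

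In SDHA-low against SDHB-KO cells, 1 proteasome gene changed: PSMF1, the inhibitor PI31, fell. Parental samples of PSMF1 had 171 and 147 CPM, SDHB-KO samples 274, 215 and 217 CPM, and SDHA-low samples 171, 125 and 118 CPM. The SDHB-KO samples were all above those of both other groups, which overlapped each other. By edgeR, its log2 fold change was -0.77 ± 0.21 (SE), with an adjusted p of 0.099. In SDHB-KO against parental cells its log2 fold change was 0.56 ± 0.24 (SE), with an adjusted p of 0.218 in edgeR. Among all genes, 1.51% were called in this comparison and 1.19% as lower, beside 1 of 45 members (2.22%). The call was close to the threshold and was lost in 11 of 15 alternatives, among them leaving out any of the parental or SDHB-KO samples or replicate 3 of the SDHA-low cells. PSMF1 lies at chromosome 20, bases 1113240 to 1189415 of GRCh38. None of the members was called higher by edgeR or by DESeq2. In edgeR, 2 higher and 4 lower had an unadjusted p below 0.05, 13.3% of members beside 12.1% of all genes. The median log2 fold change of the 45 was -0.010 (all genes 0.013), and in 11 members (4 higher and 7 lower) the groups did not overlap, which is 24.4%, beside 17.4% of all genes. The 95% interval lay within a 2-fold change for 28.

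Of the members not called, PSMB6, PSMD4 and PSMB2 had the smallest unadjusted p. PSMB6, whose values stand above, was lower in each SDHA-low sample than in every SDHB-KO sample, and the log2 fold change was -0.53 ± 0.20 (SE), with an adjusted p of 0.259 in edgeR. PSMB2 was measured at 185 and 219 CPM in the parental samples, at 183, 195 and 162 CPM in the SDHB-KO samples, and at 274, 216 and 251 CPM in the SDHA-low samples. PSMB2, which is a non-catalytic beta subunit, was higher in all SDHA-low samples than in the SDHB-KO samples, and parental replicate 2 lay in the SDHA-low range. A test in edgeR gave a log2 fold change of 0.45 ± 0.20 (SE) and an adjusted p of 0.356. PSMD4 had a log2 fold change of -0.52 ± 0.22 (SE), with an adjusted p of 0.346 in edgeR and overlapping groups. PSMD3 had about the same level in both sublines (926 ± 210 and 919 ± 160 CPM).

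Activators open the core in place of the 19S particle, and none of the 4 was called in any of the 3 comparisons. Parental samples of PSME1 had 149 and 227 CPM, SDHB-KO samples 183, 182 and 191 CPM, and SDHA-low samples 224, 278 and 257 CPM. PSME2 was measured at 134 and 122 CPM in the parental samples, at 139.6, 123 and 164 CPM in the SDHB-KO samples, and at 130.3, 170.1 and 165 CPM in the SDHA-low samples. PSME1 and PSME2 form the interferon-inducible PA28 ring. The 3 SDHA-low samples of PSME1 were above the SDHB-KO samples, with parental replicate 2 in their range, and the log2 fold change was 0.45 ± 0.20 (SE), with an adjusted p of 0.382 in edgeR. The groups of PSME2 overlapped (log2 fold change 0.13 ± 0.21, adjusted p = 0.852 in edgeR). Parental samples of PSME3 had 283 and 309 CPM, SDHB-KO samples 334, 349 and 387 CPM, and SDHA-low samples 416, 420.1 and 384 CPM. PSME3 (PA28 gamma) is the nuclear activator. Its parental samples were lowest, and the log2 fold change was 0.46 ± 0.20 (SE), with an adjusted p of 0.364 in edgeR in SDHA-low against parental cells. PSME4 was measured at 12.7 and 17.3 CPM in the parental samples, at 30.1, 25.6 and 21.6 CPM in the SDHB-KO samples, and at 7.24, 20.9 and 17.8 CPM in the SDHA-low samples. PSME4 (PA200), another nuclear activator, was higher in all SDHB-KO samples than in all other samples. Its log2 fold change was 0.78 ± 0.48 (SE) in SDHB-KO against parental cells and -0.70 ± 0.41 in SDHA-low against SDHB-KO cells, with adjusted p of 0.424 and 0.514 in edgeR. Together the 4 activators had 628 ± 67.9 CPM in parental, 710 ± 46.5 CPM in SDHB-KO and 831 ± 55.8 CPM in SDHA-low cells.

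In SDHA-low against parental cells, PSMD3 rose, as the only member called (1 of 45, 2.22%). The log2 fold change was 0.92 ± 0.23 (SE), with an adjusted p of 0.092 in edgeR. Its call was lost when parental replicate 1, parental replicate 2, SDHB-KO replicate 1, SDHB-KO replicate 3 or SDHA-low replicate 1 was left out. Of all genes, 0.914% were called in this comparison and 0.225% as higher. The median log2 fold change of the members was 0.072 (all genes 0.017). In 15 of 45 (8 higher and 7 lower) the groups did not overlap, which is 33.3%, beside 30.7% of all genes, and for 26 the 95% interval lay within a 2-fold change. No member was called lower by edgeR or DESeq2. At an unadjusted p below 0.05 in edgeR, none was lower and 5 were higher, 11.1% of members beside 12.3% of all genes. PSMB7 had a log2 fold change of 0.54 ± 0.23 (SE) and PSMD9 of 1.19 ± 0.50, with adjusted p of 0.336 and 0.321 in edgeR. This comparison shares its parental samples with the first, and both sublines carry the SDHB knockout.

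Parental samples of PSME3IP1 had 96.02 and 114 CPM, SDHB-KO samples 107, 140.1 and 137 CPM, and SDHA-low samples 179.8, 164 and 152 CPM. PSME3IP1, which binds PSME3, is not a subunit. Its SDHA-low samples were above all others. By edgeR, its log2 fold change was 0.65 ± 0.24 (SE), with an adjusted p of 0.248 in SDHA-low against parental cells. PSMC3IP, a recombination factor that carries a proteasome name through a protein interaction, had 3.62 to 15.04 CPM per sample and was not called.

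Other genes of the pathway were counted from 29 ubiquitin, assembly and shuttle genes, of which 24 were tested. In SDHB-KO against parental cells 1 of the 24 rose and none fell by edgeR, beside 3.14% of all genes called higher and 2.40% lower. In edgeR, 3 higher and 3 lower had an unadjusted p below 0.05, beside 17.5% of all genes. DESeq2 also called 1 higher and none lower, beside 12.4% of 3168 genes called in either direction. The gene that rose was UFD1, a partner of the VCP segregase, with a log2 fold change of 0.98 ± 0.30 (SE, adjusted p = 0.089 in edgeR). Its call was lost with a replicate block and without parental replicate 1, parental replicate 2, SDHB-KO replicate 1 or SDHB-KO replicate 3, with adjusted p from 0.020 to 0.676 over 15 alternatives in edgeR and DESeq2. Of the ubiquitin genes, UBB had a difference of 0.02 and RPS27A of 0.39 on the log2 scale in SDHB-KO against parental cells, neither called. NFE2L1, the factor that restores proteasome genes when the protease is inhibited, had a log2 difference of -0.32 ± 0.31 (SE). POMP, which matures the core, had -0.20 ± 0.25, and SEM1, the small lid subunit outside the PSM names, -0.82 ± 0.31 with an adjusted p of 0.164 in edgeR. In SDHA-low against SDHB-KO and against parental cells none of the 24 was called by edgeR or DESeq2. At an unadjusted p below 0.05 in edgeR there were 3 and 4, beside 12.1% and 12.3% of all genes. UBB was lower in each SDHA-low sample than in all others, with log2 differences of -0.49 ± 0.17 (SE) and -0.47 ± 0.19. Those of RPS27A were -0.28 and 0.11, with overlapping groups.

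Of 11 genes that respond to interferon together with the immunoproteasome, 9 were tested, and 2 fell in SDHB-KO against parental cells, beside 2.40% of all genes called lower. HLA-B had 77 and 37 counts in the parental samples, 15, 16 and 11 in the SDHB-KO samples, and 27, 23 and 20 in the SDHA-low samples, a log2 fold change of -2.06 ± 0.39 (SE, adjusted p = 0.0085 in edgeR). B2M, the light chain of HLA class I, had 110 and 59 counts in the parental samples, 31, 50 and 51 in the SDHB-KO and 61, 77 and 63 in the SDHA-low samples, a log2 fold change of -1.01 ± 0.28 (SE, adjusted p = 0.059 in edgeR). The 2 parental samples of HLA-B and B2M were themselves well apart. Without parental replicate 1 neither was called, and the call of B2M was also lost with a replicate block and without parental replicate 2, SDHB-KO replicate 1 or SDHB-KO replicate 3. DESeq2 called B2M and gave no adjusted p for HLA-B. HLA-B also fell in SDHA-low against parental cells, by 1.56 on the log2 scale (adjusted p = 0.077 in edgeR), beside 0.689% of all genes called lower. That call was lost in 6 of 15 alternatives: a replicate block, a fit of only the 2 groups, and leaving out parental replicate 1, SDHB-KO replicate 1, or replicate 1 or 3 of the SDHA-low cells. HLA-B and HLA-C resemble each other in sequence, so reads that fit both may have been left out as multimapping, which was not tested. PSMB8 and PSMB9 had differences near 0 between SDHB-KO and parental cells.

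The members' differences moved with the base composition of their transcript ends. Across the 45, the GC content of the last 300 transcript bases had a rank correlation of 0.52 with the log2 difference of SDHB-KO against parental cells, beside 0.13 across 7539 tested genes. It was -0.24 (all genes -0.08) for SDHA-low against SDHB-KO cells and 0.38 (all genes 0.08) for SDHA-low against parental cells. These genes share the same libraries and are not independent, and members of higher GC content also had higher levels (rank correlation 0.62, all genes 0.33). The members' level had a rank correlation of 0.39 with the difference of SDHB-KO against parental cells, beside 0.10 for all genes. Of the 19 members at 45% GC or more, 15 had a difference above 0, with a median of 0.16, and all 3 called genes are among them. Of the 26 below 45%, 11 were above 0, with a median of -0.095. For all genes the medians were 0.07 and -0.06, with 54.9% and 45.7% above 0. A correction of each sample for its GC trend over all genes was added after the data were seen. With it, edgeR still called PSMB7 (0.81, adjusted p = 0.052), PSMD3 (0.85, adjusted p = 0.036) and PSMD4 (0.86, adjusted p = 0.067). PSMF1 (-0.71, adjusted p = 0.131 in edgeR) was not called in SDHA-low against SDHB-KO cells. In this fit 6.46% of 7539 genes were called in SDHB-KO against parental cells. The members' own correlation with GC content was not recomputed after the correction.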

How the data were processed

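Expression was measured with a 3' end mRNA kit in 8 samples of MDA231 cells, whose groups follow the modification in the labels. To make the raw counts, the authors selected reads by quality (Trimmomatic), discarded those of ribosomal or mitochondrial RNA (SortMeRNA), aligned to GRCh38 and counted per gene with STAR 2.5.2b. The normalized counts the authors deposited, a signal equal to the raw counts over a sample's size factor, are exchanged between SDHB-KO replicates 1 and 3 relative to the raw counts (100% of genes within 0.1%) and entered no test; replicate numbers here are those of the raw counts. Rows that name no gene (unmapped, multimapping, unassigned reads), 18.8% to 28.6% of the reads, were kept out of library sizes.

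Genes with BaseMean above 5 (7550 of 58051) were fitted with TMM normalization and the quasi-likelihood test of edgeR 4.0.16 (R 4.3.3), with all 8 samples and 3 groups in 1 fit, and p-values were adjusted over all genes by Benjamini-Hochberg and called below 0.1, as in the study's methods. The biological coefficient of variation was 21.5%, with 5 residual degrees of freedom. CPM values are TMM-normalized. Symbols, coordinates and transcript ends were those of GENCODE release 44 on GRCh38, and promoter windows from RefSeq. Full values are given for members called in any comparison, the catalytic and interferon-inducible pairs, the activators, PSMF1, and the 3 members of smallest unadjusted p among those not called in each comparison. The members and lists were chosen with earlier results of these data known. A few genes of the lists are not reported here and were left out of the lists' counts. Alternatives were DESeq2 1.42.0, its size factors, other count minimums, an adjusted p of 0.05, fits of 2 groups, a replicate block, each sample left out and, added after the data were seen, a lowess correction (span 0.3) for GC content as an edgeR offset. The edgeR fit and its GC correction were tested with simulated counts.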

Additional observations from a re-analysis of the deposited data

How the results depend on the processing

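In SDHB-KO against parental cells, 3 members were called, 2 at an adjusted p below 0.05, 4 by DESeq2 and 4 in a fit of only the 2 groups. Leaving out 1 sample gave between 0 and 5 calls: 0 without parental replicate 1, parental replicate 2 or SDHB-KO replicate 1, 1 without SDHB-KO replicate 3, and 5 without SDHA-low replicate 2, the most deeply sequenced sample. The members' median log2 fold change then ranged from -0.008 to 0.174. The calls among all 7550 genes moved likewise, from 418 to 773 in the fit of 2 groups, 0 without parental replicate 1 (with 4 members at an unadjusted p below 0.05 in edgeR), 46 without parental replicate 2, 77 without SDHB-KO replicate 1, 148 without SDHB-KO replicate 3 and 833 without SDHA-low replicate 2. In SDHA-low against SDHB-KO cells, the 1 call became 0 at an adjusted p below 0.05, with DESeq2 size factors, without a filter on low counts, with a replicate block, with the GC correction and in a fit of only the 2 groups, with 4 to 7 members at an unadjusted p below 0.05 in edgeR, and DESeq2 kept 1. Leaving out 1 sample gave 0 to 3 calls and medians from -0.049 to 0.113. In SDHA-low against parental cells, the 1 call became 0 at an adjusted p below 0.05, with the replicate block and in a fit of 2 groups, and 0 to 1 when a sample was left out, with medians from 0.017 to 0.127. Calls among all genes changed as well. In SDHA-low against SDHB-KO cells, 114 became 109 with DESeq2 size factors, 130 with the GC correction and 64 in the fit of 2 groups. They became 59 with the replicate block, 39 without SDHB-KO replicate 1 and 362 without SDHA-low replicate 2. In SDHA-low against parental cells, 69 became 12 with the replicate block and 7 in the fit of 2 groups. They became 8 without SDHA-low replicate 1 and 172 without SDHA-low replicate 2. The causes were not tested.

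The deviations of same-numbered samples had correlations from -0.270 to 0.093 (7 pairs). These pairs cannot decide whether a shared number means more than a label. The numbering of SDHB-KO samples differs between the raw and normalized counts. The deviations of the parental samples mirror each other, so the pairs are not independent. The replicate block left 3, 0 and 0 members called in the 3 comparisons and 199, 59 and 12 of all genes, against 418, 114 and 69 without it.

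Of 756 recomputed log2 fold changes of named genes, 692 kept their direction and side of the threshold, 29 lost and 8 gained a call, and 27 changed sign, each in a difference that was not called. In SDHB-KO against parental cells, leaving out samples gave PSMB5 -0.202 to 0.012, PSMB6 -0.031 to 0.285, PSMB8 -0.378 to 0.509, PSMB9 -0.286 to 0.210 and PSME1 -0.290 to 0.314. With BaseMean above 10, PSMB8 was at -0.007 and PSMB9 at -0.015, with the GC correction PSMB8 was at -0.093, and in a fit of 2 groups PSMB9 was at -0.001. Between both sublines, leaving out samples gave PSMB5 -0.024 to 0.148, PSMB9 -0.136 to 0.358 and PSMD3 -0.151 to 0.186, and PSMD3 was at 0.007 without a filter and at 0.077 with the GC correction. In SDHA-low against parental cells, they gave PSMB5 -0.127 to 0.086, PSMB9 -0.082 to 0.159 and PSME4 -0.239 to 0.383, and PSMB5 was at 0.002 without a filter and at 0.008 with the replicate block. Precision was limited at low levels: of the 15 tested members averaging below 30 CPM, 2, 2 and 1 had a 95% interval within a 2-fold change in the 3 comparisons, against 24, 26 and 25 of the other 30.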
